A study of Rattus norvegicus with 12 samples.

Results

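Chondrocytes of Wistar Kyoto rats (WKY, the strain used as the normotensive control of the spontaneously hypertensive rat, SHR) were compared between 3 months and 5 days of age. The comparison takes 6 of the 12 libraries of the series, chosen by the strain and the age in their labels, and every gene that passed a filter on low counts. The WKY 5-day group and the WKY 3-month group had 3 libraries each, with replicates 1 and 2 in batch 1 and replicate 3 in batch 2. The other 6 libraries were SHR chondrocytes of the same ages with the same layout, and they entered the model to estimate the spread and as a second strain. In all groups the cells grew out of femorotibial cartilage pieces treated with collagenase and were kept as a monolayer in medium with serum before total RNA was sequenced, so every value describes cultured cells. The labels give neither the sex of the animals nor whether each replicate was another animal or culture. The tests therefore rest on the spread between these libraries, which may be technical.

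Articular chondrocytes lay down a matrix of type II collagen and aggrecan, and they tend to lose this programme when they are grown as a monolayer. In young mammals many tissues express a shared set of growth genes that falls as body growth slows. Several of these genes are imprinted, which means that only the copy from one parent is transcribed. They include the growth factor gene Igf2 and the regulators Plagl1, Peg3, Mest and Dlk1.

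Total counts per library ran from 17839101 to 20049757 in WKY, and 13397 of the 16770 genes of the table were tested. By edgeR's quasi-likelihood test with batch as a term, 501 genes were called at an adjusted p under 0.05 (Benjamini-Hochberg over all genes tested), which is 3.74% of those tested. Of these, 229 (1.71%) were higher at 3 months with a median change of 1.63 on the log2 scale, and 272 (2.03%) were lower with a median size of 2.54. The lower genes held the larger changes: 109 of them and 51 of the higher genes differed by over 3 on the log2 scale. The groups did not overlap for 435 of the 501 called genes, against 15.3% of all genes tested (7.96% with 3 months higher and 7.36% with 3 months lower), and all 501 moved the same way in both batches. The calls were made on these same libraries with batch as a term, so neither count is separate support for them. The number of calls depended on single libraries. It was 289 without 5-day replicate 1, 552 without 5-day replicate 2, 232 without 5-day replicate 3, 110 without 3-month replicate 1, 133 without 3-month replicate 2 and 337 without 3-month replicate 3, and 86 of the 501 calls (40 higher, 46 lower, 0.642% of genes tested) held in all 6 of these fits. Some of the 86 missed the threshold in other fits. With the WKY libraries alone, the adjusted p was 0.0526 for Pappa2 and 0.0584 for Cd99l2. Without the batch term, it was 0.0531 for Mest. The call count was 268 with the WKY libraries alone. It was 254 when the SHR 5-day replicates 1 and 2, which were unusually alike (correlation of log2 CPM 0.9955, against 0.946 to 0.9862 for the batch 1 pairs of the other groups), were averaged.

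**Figure D1:**
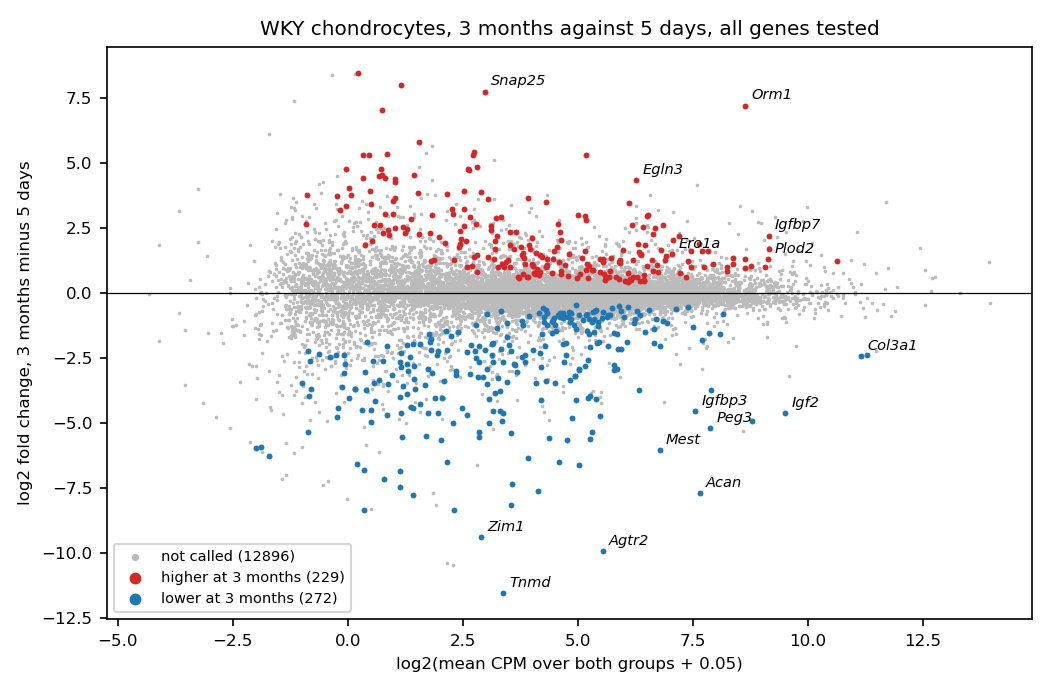
Each point is 1 of the 13397 genes tested, with the log2 of its mean CPM over the WKY groups on the x axis and its log2 fold change (3 months minus 5 days, batch-adjusted) on the y axis. Red points are the 229 genes called higher and blue points the 272 called lower at 3 months, and the largest falls, such as Tnmd, Agtr2 and Zim1, go further from 0 than the largest rises.

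Other cell types and the libraries themselves were checked beside this. Values are in CPM (counts scaled to a common library total) without TMM factors in this paragraph and in TMM-scaled CPM elsewhere. Summed macrophage and blood cell markers (16 genes in the table) ran from 22.5 to 116 CPM at 5 days, with the highest in replicate 1, and from 38.9 to 55.8 CPM at 3 months, where Mrc1, C1qa and C1qc were at 0, as they were in 5-day replicates 2 and 3. Cd14 had 24.4, 18 and 11.4 CPM at 5 days and 46, 33.4 and 33.2 CPM at 3 months. Of the 8 tested members, 6 had a negative and 2 a positive log2 fold change. Endothelial markers (12 genes) summed to 25 to 41.1 CPM and 43.1 to 57.2 CPM, with Cdh5, Kdr and Tie1 at 0 at 3 months and at most 0.264 CPM at 5 days. Eng had 11, 10.8 and 16.6 CPM at 5 days and 24.8, 23.2 and 26.4 CPM at 3 months. Of the 7 tested endothelial markers, 4 had a negative and 3 a positive log2 fold change. Pericyte and smooth muscle markers (10 genes) summed to 2066 to 9388 CPM at 5 days and 635 to 4496 CPM at 3 months, with the highest in replicate 3 in both groups, and Rgs5 was at 0 in all but 1 of the 6 libraries (0.0561 CPM). Fibroblast and mesenchyme markers (16 genes) summed to 21930 to 29520 CPM and 12750 to 27260 CPM. Of tested markers, 0 of 8 for macrophages and blood cells and 0 of 9 for pericytes and smooth muscle were called. Of all genes tested, 1.71% were called higher and 2.03% lower. Without 3-month replicate 3, 3 pericyte and smooth muscle markers were called lower, with a median of -1.50 against -0.55. By DESeq2, 3 markers of each of these lists were called lower. Of 15 tested fibroblast markers, Col3a1, Postn and Thy1 were called lower, against 2.03% of all genes tested. Of these 15, 8 had a positive and 7 a negative log2 fold change, with a median of 0.048. Phex was called lower for osteoblasts, and for skeletal muscle Myod1 was called higher and Myh1 lower. Tek (endothelial, -4.50 ± 0.84, adjusted p = 0.0224) and Cebpa (adipocyte, -1.21 ± 0.27, adjusted p = 0.0424) were called lower. The call of Tek was lost without 3-month replicate 1 or 3-month replicate 2 (adjusted p up to 0.12) and that of Cebpa was kept only without 5-day replicate 1 or 3-month replicate 1 (adjusted p up to 0.122). With the replicate number as a block the adjusted p was 0.0696 for Cebpa. The part of these cell types in the results was not tested, and in bulk RNA fewer cells of a type and less RNA per cell cannot be told apart. Y-linked transcripts summed to 0.58, 131 and 60.7 CPM in 5-day replicates 1, 2 and 3 and to at most 0.0998 CPM in each 3-month library. Y-linked transcripts were thus present in 5-day replicates 2 and 3, and near 0 in 5-day replicate 1 and in all 3-month libraries. Animal sex, which the labels do not give, may thus differ between the ages, so sex and age cannot be fully told apart here. Without 5-day replicates 2 and 3 (a fit added after these values were seen), the 5-day arm is replicate 1 alone, the library with the highest macrophage markers, with no batch 2 library at that age. Its spread is then assumed to be that of the other groups. In that fit 677 genes were called, of which 217 were among the 501, and 6 of 15 macrophage and blood cell markers were called lower (median -5.73).

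Many genes of the early growth programme fell between 5 days and 3 months. Of the 28 tested members of a list of this programme (imprinted growth genes, the Igf2 mRNA-binding proteins and related fetal genes), 14 were called lower and 0 higher, against 2.03% and 1.71% of all genes tested. Their median log2 fold change was -3.22, against -0.0232 over all genes tested, and 25 of the 28 had a negative value. The groups did not overlap, with all 3-month libraries lower, for 21 of the 28, against 7.36% of all genes tested. Like the other gene lists, this one was chosen with earlier results of these data known. Its counts are therefore not independent evidence. In the 6 fits that leave out 1 WKY library, between 7 and 12 members were called lower and 0 higher. The fewest, 7, were called without 3-month replicate 1 and without 3-month replicate 2, and 9 were called without 3-month replicate 3. Without the batch term 6 were called lower and 0 higher.

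Peg3 (gene 103691034), an imprinted zinc finger gene, had 199, 549.7 and 622 CPM at 5 days and 8.55, 11.7 and 17.8 CPM at 3 months in replicates 1, 2 and 3. Every 3-month library lay far below every 5-day library (log2 fold change -5.19 ± 0.49 (SE), adjusted p = 0.00283). Mest (gene 58827), an imprinted gene of the alpha/beta hydrolase fold family, had 247, 189.6 and 209 CPM at 5 days and 0.782, 2.98 and 12 CPM at 3 months. It was high and even at 5 days, and the 3-month libraries spread over a wide range without reaching it (log2 fold change -6.04 ± 0.74 (SE), adjusted p = 0.00556). Plagl1 (gene 25157), an imprinted zinc finger transcription factor, had 33.7, 75.5 and 115 CPM at 5 days and 0.0521, 1.11 and 7.02 CPM at 3 months. The groups were again apart, although batch 2 was the highest library in each (log2 fold change -5.61 ± 0.83 (SE), adjusted p = 0.00984). The calls of all 3 genes held without any 1 of the 6 libraries, with highest adjusted p of 0.0263, 0.0322 and 0.0485.

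Igf2 (gene 24483), the fetal insulin-like growth factor, had 633, 538 and 3073 CPM at 5 days and 27.4, 26.3 and 71 CPM at 3 months. The lowest 5-day library was above the highest 3-month library, and batch 2 was high at both ages (log2 fold change -4.60 ± 0.94 (SE), adjusted p = 0.0318). This call was kept without 5-day replicate 2 and lost without each of the other 5 libraries in turn (adjusted p up to 0.113). Zim1 (gene 308322), a zinc finger gene beside Peg3, had 5.33, 28.1 and 11.2 CPM at 5 days and 0, 0.0505 and 0 CPM at 3 months. Only 1 read was counted at 3 months, in replicate 2, so the ratio of 5 days to 3 months was 839 with a 95% counting interval from 150.2 to 33176 (log2 fold change -9.39 ± 1.20 (SE), adjusted p = 0.00669). Slc38a4, an imprinted amino acid transporter gene, also had 1 read at 3 months, a ratio of 303 (interval from 54 to 12021). Dlk1, which encodes a Notch-like transmembrane protein of immature cells, went from 47.5 ± 36.1 to 0.536 ± 0.369 CPM (log2 fold change -6.48 ± 1.16 (SE), adjusted p = 0.0191). Gpc3, a proteoglycan that restrains body growth, went from 23.6 ± 13.5 to 0.136 ± 0.154 CPM (log2 fold change -7.32 ± 1.26 (SE), adjusted p = 0.0176). The calls of Slc38a4 and Gpc3 were lost without 3-month replicate 1 or 2, with adjusted p up to 0.0574 and 0.0901, and that of Dlk1 without any of the 3-month libraries (up to 0.0988). The call of Zim1 held in all 6 fits.

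Ptn, which encodes the heparin-binding growth factor pleiotrophin, had 40, 117 and 3.32 CPM at 5 days and 1.35, 1.01 and 0.226 CPM at 3 months. The groups did not overlap, although the 5-day value of batch 2 was far below those of batch 1 (log2 fold change -5.63 ± 0.63 (SE), adjusted p = 0.00503). Hmga2, a chromatin protein of growing tissue, had 13.7, 13.2 and 14.4 CPM at 5 days and 2.97, 5.96 and 2.26 CPM at 3 months. It was even at 5 days and lower in all 3-month libraries (log2 fold change -1.96 ± 0.44 (SE), adjusted p = 0.043), but its call was lost without any 1 of the 6 libraries, with adjusted p up to 0.166. With the replicate number as a block the adjusted p was 0.0616 for Hmga2. The members that did not pass included Igf2bp3 (-4.12 ± 1.00, adjusted p = 0.0552), Cdkn1c (-3.13 ± 0.78, adjusted p = 0.0582) and Grb10 (-0.63 ± 0.18, adjusted p = 0.0813), each with no overlap between groups. Igf2r, the clearance receptor for Igf2, had a log2 fold change of -0.27 ± 0.37 (adjusted p = 0.699) and Gnas one of 0.14 ± 0.15 (adjusted p = 0.611). Both overlapped between ages. Members of the list named beside those chosen by rule were picked after their values were seen.

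**Figure D2:**
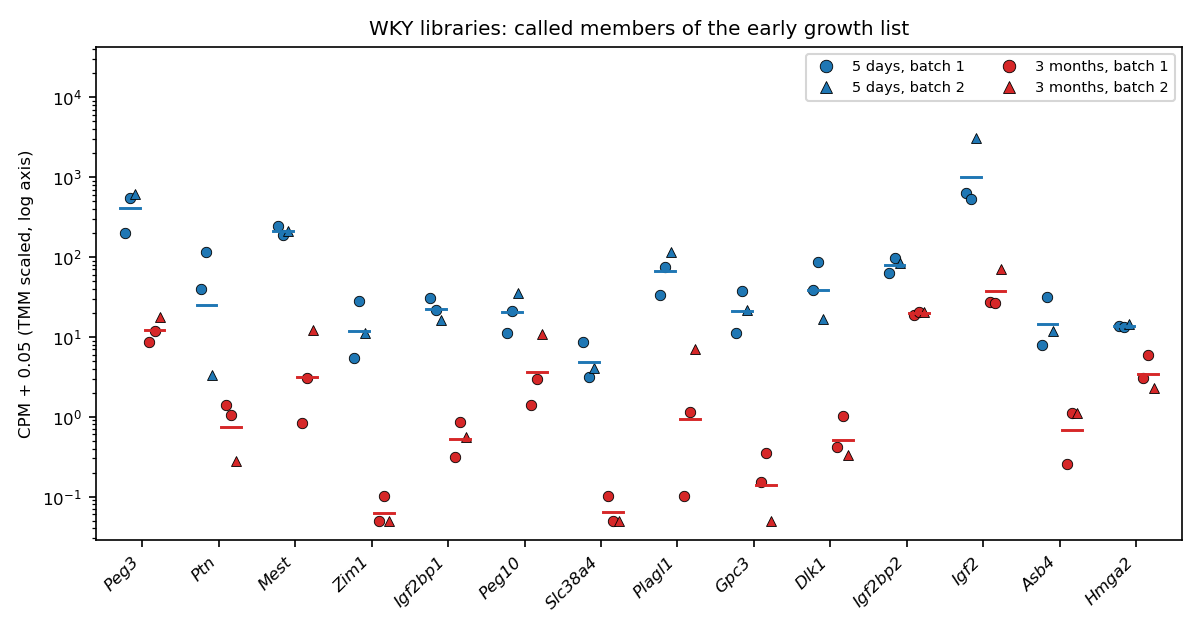
The y axis gives the level in CPM with 0.05 added, on a log axis, for each WKY library and each of the 14 called members of the early growth list. Circles are batch 1, triangles batch 2, and short lines are means on the log scale. In all 14 genes the 5-day libraries (blue) lie above the 3-month libraries (red).

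The promoters of Peg3, Mest and Plagl1 are shown as examples of imprinted genes that fell and held in all 6 fits. Zim1 and Peg10 of the same list also fell and held in these fits, but their promoters are not shown. In imprinted loci, CpG dinucleotides (C followed by G) near a start site can carry the parental methylation mark. Each sequence is the RefSeq stretch of build GRCr8 from 250 bases before to 50 bases after the gene's start, 5′ to 3′ on the gene's strand, with every CpG in capitals.
Peg3, chr1:76130744-76131043, plus strand: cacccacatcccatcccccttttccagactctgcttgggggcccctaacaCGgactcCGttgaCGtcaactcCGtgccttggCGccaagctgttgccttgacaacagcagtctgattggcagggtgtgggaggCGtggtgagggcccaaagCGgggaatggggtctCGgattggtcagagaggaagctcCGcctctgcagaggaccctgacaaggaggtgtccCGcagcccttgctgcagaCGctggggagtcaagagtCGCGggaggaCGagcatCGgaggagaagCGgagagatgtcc
Mest, chr4:60321564-60321863, plus strand: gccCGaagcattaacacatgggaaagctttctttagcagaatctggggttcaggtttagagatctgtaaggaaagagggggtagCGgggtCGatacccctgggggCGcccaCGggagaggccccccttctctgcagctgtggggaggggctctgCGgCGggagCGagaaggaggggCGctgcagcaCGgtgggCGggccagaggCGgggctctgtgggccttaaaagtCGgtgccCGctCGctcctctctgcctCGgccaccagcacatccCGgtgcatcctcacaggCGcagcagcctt
Plagl1, chr1:9297214-9297513, plus strand: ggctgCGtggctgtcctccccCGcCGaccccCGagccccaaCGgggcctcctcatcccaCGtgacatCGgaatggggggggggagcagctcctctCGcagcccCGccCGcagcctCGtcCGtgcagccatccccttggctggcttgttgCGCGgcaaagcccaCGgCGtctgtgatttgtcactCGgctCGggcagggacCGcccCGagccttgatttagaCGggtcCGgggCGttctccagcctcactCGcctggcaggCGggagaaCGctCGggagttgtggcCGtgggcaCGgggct

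These stretches held 16 CpG in Peg3, 18 in Mest and 29 in Plagl1, around the median of 21 for the 10523 tested genes with a promoter in the table. A CpG was present in 94.8% of all 27457 promoters there. For the called genes, the median was 22 CpG in the 219 lower genes and 15.5 in the 176 higher genes that had an entry, and the GC content was 65.3% and 60.3%, against 61% over tested genes. The CpG count says nothing on methylation, which was not measured here.

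The falls at imprinted loci did not extend to all neighbours. Genes are given in the order of the later assembly GRCr8, counting tested genes only and 5 on either side, windows that were chosen after the values were seen. Around Peg3, the adjacent Zim1 was called lower and 0 of the other 9 were called. Around Peg10, a gene derived from a retrotransposon, Peg10 (11.1, 21.3 and 35.2 CPM at 5 days and 1.35, 2.93 and 10.9 CPM at 3 months) fell (log2 fold change -2.45 ± 0.36 (SE), adjusted p = 0.00914). Its neighbours Ppp1r9a (-3.15 ± 0.70, adjusted p = 0.0432) and Asb4 (-4.54 ± 1.00, adjusted p = 0.0408) also fell. Between these, the paraoxonase genes Pon3 (3.26 ± 0.73, adjusted p = 0.043) and Pon2 rose. Pon2 had 53, 61.5 and 57 CPM at 5 days and 149, 140.2 and 124 CPM at 3 months, with all 3-month libraries above all 5-day libraries (log2 fold change 1.27 ± 0.14 (SE), adjusted p = 0.00503). Sgce, on the other side of Peg10, had a log2 fold change of -0.15 ± 0.22 (adjusted p = 0.724). The calls of Peg10 and Pon2 held in all 6 fits. That of Ppp1r9a was kept without 5-day replicate 1 or 2 only, that of Pon3 without 5-day replicate 2 only and that of Asb4 in none, with adjusted p up to 0.176, 0.129 and 0.162. With the replicate number as a block the adjusted p was 0.067 for Ppp1r9a, 0.0617 for Asb4 and 0.061 for Pon3. Beside Mest, Copg2 had a log2 fold change of 0.37 ± 0.15 (adjusted p = 0.197).

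**Figure D3:**
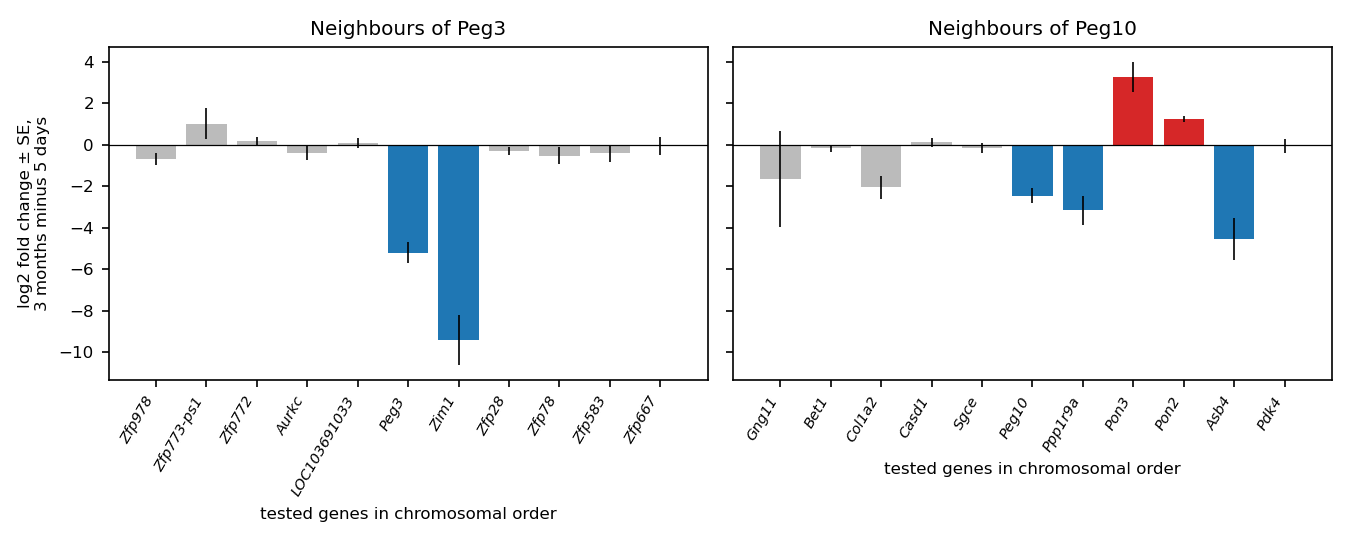
Bars give the log2 fold change (3 months minus 5 days) and its SE for tested genes in chromosomal order around Peg3 and Peg10. Blue bars are genes called lower, red bars genes called higher and grey bars genes that were not called, and Pon3 and Pon2 are red between the blue bars of Ppp1r9a and Asb4.

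Around the growth factor itself, members of the insulin-like growth factor axis moved in both directions. Of 21 tested members of the growth hormone and IGF list, 3 were called higher and 3 lower (Igf2 included), against 1.71% and 2.03% of all genes tested. Igfbp3, a binding protein that holds IGFs in the circulation and the matrix, had 401, 377 and 305 CPM at 5 days and 23.6, 18 and 7.02 CPM at 3 months and was lower in every 3-month library (log2 fold change -4.53 ± 0.80 (SE), adjusted p = 0.0187). Pappa2, a protease that cleaves IGF-binding proteins, had 4.54, 12.9 and 6.35 CPM at 5 days and 0.417, 0.0505 and 0 CPM at 3 months and was likewise lower in all (log2 fold change -5.65 ± 0.84 (SE), adjusted p = 0.0103). Igfbp7, a secreted IGFBP-related protein, had 87.2, 225 and 315 CPM at 5 days and 885, 937 and 967 CPM at 3 months, and all 3-month libraries were higher (log2 fold change 2.22 ± 0.42 (SE), adjusted p = 0.0254). Stc1, an inhibitor of the IGFBP protease PAPP-A, had 9.48, 15 and 5.49 CPM at 5 days and 41.5, 32.4 and 44.1 CPM at 3 months and was higher in all 3-month libraries (log2 fold change 2.03 ± 0.42 (SE), adjusted p = 0.0318). Jak2, the kinase of the growth hormone receptor, rose from 64.8 ± 23.2 to 179 ± 93.8 CPM (log2 fold change 1.42 ± 0.28 (SE), adjusted p = 0.0286). Igf1 had 308, 370.4 and 102 CPM at 5 days and 88.2, 8.29 and 17.1 CPM at 3 months. Its groups did not overlap, but it did not pass the test (log2 fold change -2.74 ± 0.91 (SE), adjusted p = 0.132).

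The Igf2 mRNA-binding proteins belong to the same fetal setting. Igf2bp1 (gene 303477) had 30.2, 21.6 and 16.3 CPM at 5 days and 0.261, 0.808 and 0.509 CPM at 3 months and was lower in every 3-month library (log2 fold change -5.39 ± 0.69 (SE), adjusted p = 0.00669). Igf2bp2 had 62.7, 97.2 and 84.6 CPM at 5 days and 18.7, 20.7 and 20.2 CPM at 3 months, with the 3-month libraries close together and below all 5-day libraries (log2 fold change -2.04 ± 0.41 (SE), adjusted p = 0.0301). The calls of Igf2bp1 and Pappa2 held in all 6 fits. Igfbp3 was lost without any 3-month library (adjusted p up to 0.0855). Igfbp7 was lost without 5-day replicate 3 or 3-month replicate 1 or 2 (up to 0.0857). Jak2 was kept without 3-month replicate 3 only, and Igf2bp2 only without 5-day replicate 1. Stc1 was kept without 5-day replicate 2 only. Their adjusted p rose to 0.107, 0.129 and 0.107.

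Cartilage genes had mostly negative values, but they also differed strongly between batches. Of 24 tested members of the cartilage matrix and identity list, 4 were called lower and 2 higher, against 2.03% and 1.71% of all genes tested, and the median was -1.29. The median was -2.25 without 5-day replicate 2, -2.09 without 3-month replicate 1 and -2.30 without 3-month replicate 2. Lower calls numbered 1 without 3-month replicate 3 and 2 without 5-day replicate 3. Higher calls numbered 0 without 5-day replicate 1 or 3 or 3-month replicate 1 or 2, and 1 without 5-day replicate 2. With limma-voom the median was -2.25. Batch 2 exceeded batch 1 by a median of 2.65 on the log2 scale over these members, against -0.0245 over all genes tested. Col2a1 (gene 25412), the main collagen of cartilage, had 49.1, 10 and 5723 CPM at 5 days and 0.0521, 3.18 and 409.8 CPM at 3 months. Batch 2 was high at both ages, the groups overlapped and the change did not pass the test (log2 fold change -4.10 ± 1.35 (SE), adjusted p = 0.128). Within batch 1, both 3-month libraries were below both 5-day libraries. Matn1 and Cnmd, further defining cartilage genes, were at 0 in all 3-month libraries. At 5 days they were near 0 in batch 1 as well (at most 0.158 and 0.264 CPM) and at 14.1 and 17.8 CPM in batch 2, on the scale without TMM factors. Sox9, the master regulator of chondrocytes, had 13.3, 8.82 and 84.4 CPM at 5 days and 2.14, 6.72 and 29.1 CPM at 3 months (log2 fold change -1.40 ± 0.47 (SE), adjusted p = 0.133). The defining chondrocyte genes Col2a1 and Sox9 were thus lower in batch 1 than in batch 2 within each age. Col10a1, the collagen of hypertrophic cartilage, had too few counts to be tested.

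Acan (gene 58968), which encodes aggrecan, had 187, 15 and 1002 CPM at 5 days and 0.104, 0.0505 and 7.64 CPM at 3 months. All 3-month libraries were below all 5-day libraries (log2 fold change -7.70 ± 1.76 (SE), adjusted p = 0.0458). Col9a3, a chain of the collagen that coats type II fibrils, had 1.07, 0.206 and 68 CPM at 5 days and 0, 0 and 0.226 CPM at 3 months, and the groups overlapped between batches but not within them (log2 fold change -8.14 ± 0.73 (SE), adjusted p = 0.00236). Chst3, a sulfotransferase for chondroitin, had 12.8, 16.1 and 15.4 CPM at 5 days and 0.782, 1.52 and 1.7 CPM at 3 months. It was even within each age and did not follow the batch as Col2a1 did (log2 fold change -3.49 ± 0.39 (SE), adjusted p = 0.00503). Chadl also fell (-4.96 ± 1.10, adjusted p = 0.041). In the other direction, Sox6, a partner of Sox9, had 6.4, 7.12 and 23.8 CPM at 5 days and 16.9, 20.5 and 45 CPM at 3 months, overlapping between batches (log2 fold change 1.32 ± 0.24 (SE), adjusted p = 0.0208). Papss2, which makes the sulfate donor, rose from 63.4 ± 33.7 to 119 ± 16.7 CPM (log2 fold change 1.05 ± 0.22 (SE), adjusted p = 0.0318).

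Of these cartilage calls, Chst3 held in all 6 fits (adjusted p up to 0.028). Col9a3 was lost without 3-month replicate 3 (adjusted p = 0.0622). Acan was kept only without 5-day replicate 2, Chadl only without 5-day replicate 1 and Papss2 only without 3-month replicate 3 (up to 0.177, 0.167 and 0.12). Sox6 was lost without 5-day replicate 1 or 3 or 3-month replicate 1 or 2 (up to 0.083). With the replicate number as a block the adjusted p was 0.0685 for Acan, 0.0633 for Chadl and 0.0526 for Papss2.

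Genes of the hypertrophy and mineralization list (15 tested) gave 1 higher and 2 lower calls, against 1.71% and 2.03% of all genes tested. Enpp1, which makes the mineralization inhibitor pyrophosphate, had 219, 194 and 743 CPM at 5 days and 552, 443 and 1063 CPM at 3 months, higher at 3 months within each batch (log2 fold change 1.01 ± 0.17 (SE), adjusted p = 0.0168). Pth1r, the receptor for parathyroid hormone and PTHrP, had 16.8, 10.6 and 16.2 CPM at 5 days and 1.35, 2.88 and 4.98 CPM at 3 months and was lower in all 3-month libraries (log2 fold change -2.38 ± 0.42 (SE), adjusted p = 0.0186). Phex, a peptidase of mineralizing cells, fell from 1.55 ± 1.08 to 0.0699 ± 0.0271 CPM (log2 fold change -4.41 ± 1.01 (SE), adjusted p = 0.0452). Enpp1 was lost without 5-day replicate 1 or 3-month replicate 1 or 2, Pth1r without 3-month replicate 1 or 2, and Phex was kept only without 5-day replicate 1 (adjusted p up to 0.0686, 0.0793 and 0.177). With the replicate number as a block the adjusted p was 0.0665 for Phex.

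Tnmd (gene 64104), tenomodulin, a transmembrane protein of tendon and ligament cells, had 20.5, 35.1 and 6.06 CPM at 5 days and 0, 0 and 0 CPM at 3 months. It was detected in every 5-day library and had 0 reads at 3 months, at least 397-fold lower by a floor of 3 counts over the group (adjusted p = 0.00503, held in all 6 fits). Of the 14 tested superficial zone, synovial and tendon genes, 1 was called higher and 1 lower, against 1.71% and 2.03% of all genes tested. The call beside Tnmd was Htra4, a secreted serine protease, which had 1.66, 3.25 and 2.06 CPM at 5 days and 8.55, 6.67 and 9.51 CPM at 3 months (log2 fold change 1.79 ± 0.40 (SE), adjusted p = 0.0421). The call of Htra4 was kept only without 5-day replicate 2 (up to 0.155). Under the replicate block, the adjusted p was 0.0687 for Htra4. Prg4, lubricin of the joint surface, had 11.7, 62.1 and 87.2 CPM at 5 days and 42.3, 40.4 and 263 CPM at 3 months, overlapping between ages (log2 fold change 0.51 ± 0.82 (SE), adjusted p = 0.749).

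**Figure D4:**
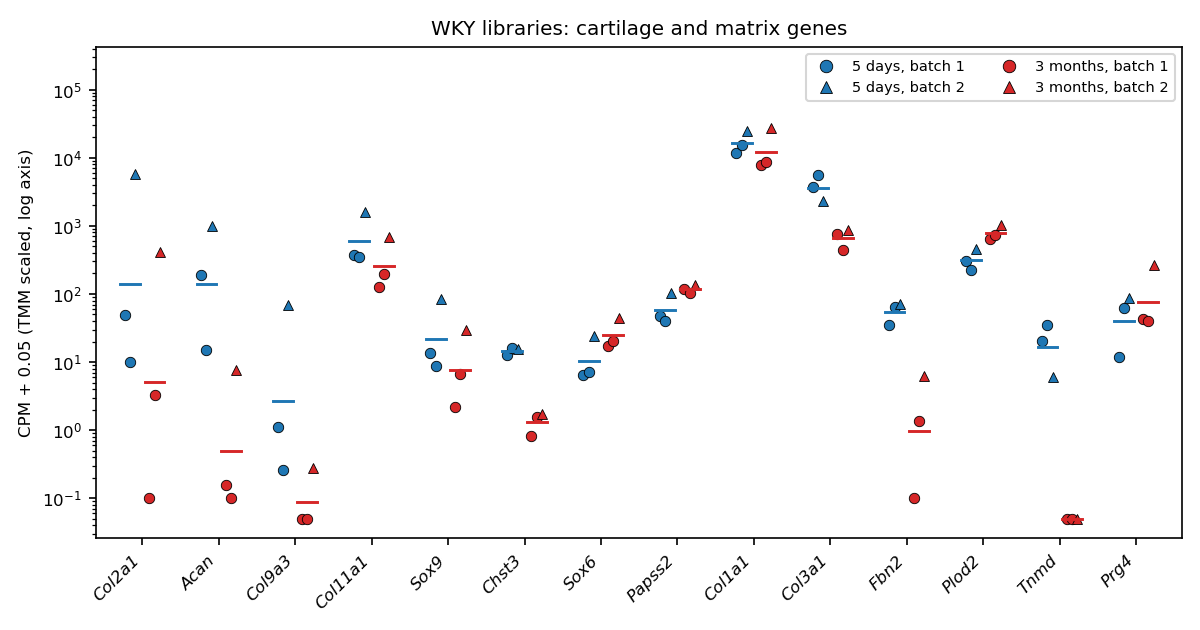
The y axis gives the level in CPM with 0.05 added, on a log axis, for each WKY library. Circles are batch 1, triangles batch 2, blue 5 days and red 3 months, with short lines for means on the log scale. Col2a1 is higher in batch 2 than in batch 1 at both ages, whereas Chst3 and Tnmd separate by age in both batches.

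Of 40 tested genes of fibrillar collagen and matrix assembly, 6 were called lower and 1 higher, against 2.03% and 1.71% of all genes tested. Col3a1, a collagen of loose connective tissue, had 3700, 5673 and 2298 CPM at 5 days and 766, 444 and 872 CPM at 3 months and was lower in all 3-month libraries (log2 fold change -2.40 ± 0.45 (SE), adjusted p = 0.0228). Fbn2, the fibrillin of developing tissue, had 35.1, 63.9 and 70.5 CPM at 5 days and 0.0521, 1.31 and 6.28 CPM at 3 months, lower in all 3-month libraries (log2 fold change -4.79 ± 0.90 (SE), adjusted p = 0.0228). Col5a3 fell from 107 ± 67.8 to 27.8 ± 11 CPM (log2 fold change -1.86 ± 0.31 (SE), adjusted p = 0.015) and the matricellular gene Postn from 449 ± 323 to 31.9 ± 14.7 CPM (log2 fold change -3.73 ± 0.74 (SE), adjusted p = 0.0286). Eln, which encodes elastin, had 161, 2130 and 273 CPM at 5 days and 34.1, 29.8 and 25.3 CPM at 3 months, with 5-day replicate 2 well above the rest (log2 fold change -4.92 ± 1.09 (SE), adjusted p = 0.0415). P4ha3, a collagen prolyl hydroxylase, fell by less (-1.28 ± 0.27, adjusted p = 0.0351). Plod2, a collagen lysyl hydroxylase, went the other way, with 302, 223 and 453 CPM at 5 days and 642, 743 and 1032 CPM at 3 months (log2 fold change 1.32 ± 0.18 (SE), adjusted p = 0.00775). Col1a1 had 11920, 15480 and 24700 CPM at 5 days and 7878, 8755 and 27330 CPM at 3 months and did not pass the test (log2 fold change -0.38 ± 0.34 (SE), adjusted p = 0.545).

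The lower calls of matrix genes depended on which library was left out. In this list, 0 were called lower without 3-month replicate 1 and 0 without 3-month replicate 2. There were 2 lower calls without 5-day replicate 3, against 5 or 6 without each of the other 3 WKY libraries. Col3a1 was lost without 3-month replicate 1 or 2, and Col5a3, Fbn2 and Postn also without 5-day replicate 3. Eln was lost without any 3-month library, and P4ha3 was kept only without 5-day replicate 2. Their adjusted p rose to 0.108 for Col3a1, 0.0775 for Col5a3, 0.111 for Fbn2, 0.12 for Postn, 0.148 for Eln and 0.145 for P4ha3. The replicate block left 3 lower calls in the list. Under the replicate block, the adjusted p was 0.0511 for Postn, 0.0778 for Eln and 0.0598 for P4ha3. Plod2 held in all 6 fits (adjusted p up to 0.0372). Beside these genes, Thy1, a fibroblast surface marker, fell from 404 ± 237 to 143 ± 99.8 CPM (log2 fold change -1.55 ± 0.31 (SE), adjusted p = 0.0296), and Acta2, the smooth muscle actin gene, had 3042, 1282 and 8718 CPM at 5 days and 118, 292 and 3840 CPM at 3 months (log2 fold change -2.22 ± 0.88 (SE), adjusted p = 0.187). Summed pericyte and smooth muscle markers were lower at 3 months in both batches, and their part was not tested. Most of the 5-day sums was Acta2 (8500 of 9388 CPM in replicate 3, without TMM factors). In batch 2, on that scale, Myh11 went from 34.7 to 77.5 CPM, Pdgfrb from 491 to 852 CPM and Cspg4 from 177 to 25.1 CPM. Of the 9 tested markers, 4 had a positive and 5 a negative log2 fold change. The call of Thy1 was lost without 5-day replicate 1 or 3 or 3-month replicate 1 or 2 (adjusted p up to 0.12).

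In the signalling lists, calls were few (1.71% higher and 2.03% lower over all genes tested), and so few calls are no result about these lists. By DESeq2 the higher and lower calls numbered 2 and 8 for Wnt genes and 3 and 4 for BMP and TGF-beta genes. They numbered 3 and 3 for hedgehog, PTHrP and FGF genes and 3 and 7 for homeobox genes. DESeq2 called 744 higher and 751 lower of all 13397 genes. Of 32 tested Wnt genes, 1 was called higher and 2 lower. Their median was -0.73, against -0.0232 over all genes tested, and 25 were negative, against 7015 of all 13397 genes. The median lay between -1 and -0.56 in the fits that leave out 1 WKY library. The groups did not overlap, with 3 months lower, for 9 of the 32, against 7.36% of all genes tested. Sfrp4, a secreted frizzled-related protein that modulates Wnt signals, had 3.66, 4.9 and 12.5 CPM at 5 days and 47.8, 20 and 54.5 CPM at 3 months and was higher in all 3-month libraries (log2 fold change 2.66 ± 0.43 (SE), adjusted p = 0.0138). Nkd1, an intracellular Wnt antagonist, had 2.64, 9.65 and 25.1 CPM at 5 days and 0.886, 1.52 and 3 CPM at 3 months, overlapping between batches (log2 fold change -2.66 ± 0.56 (SE), adjusted p = 0.0355). The ligand Wnt9a fell from 2.02 ± 0.685 to 0.559 ± 0.156 CPM (log2 fold change -1.88 ± 0.39 (SE), adjusted p = 0.0337). Of 37 tested BMP and TGF-beta genes, 1 was called in each direction. Inhbb, which encodes the activin B subunit, had 5.28, 45.4 and 12.6 CPM at 5 days and 202, 153 and 127 CPM at 3 months (log2 fold change 2.97 ± 0.67 (SE), adjusted p = 0.0452), with all 3-month libraries higher. Gdf10, a secreted TGF-beta family member, had 2.98, 4.28 and 0.114 CPM at 5 days and 0 reads at 3 months (called lower, adjusted p = 0.0386).

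Of 21 hedgehog, PTHrP and FGF genes, Pth1r was the single call. Of 42 homeobox and limb patterning genes, Hoxc9 rose (1.78 ± 0.37, adjusted p = 0.0343) and Prrx2, a mesenchymal homeobox gene, fell (-0.99 ± 0.20, adjusted p = 0.0317). Sfrp4 held in all 6 fits (adjusted p up to 0.0486). Nkd1 was kept only without 5-day replicate 1, and Wnt9a and Inhbb only without 5-day replicate 2. Gdf10 was kept only without 5-day replicate 3 and Prrx2 only without 5-day replicate 2. Hoxc9 was kept without 5-day replicate 1 or 2. The highest adjusted p were 0.142, 0.133, 0.142, 0.122, 0.129 and 0.12. Under the replicate block, the adjusted p was 0.0511 for Nkd1, 0.059 for Wnt9a, 0.065 for Inhbb, 0.0657 for Gdf10 and 0.0535 for Prrx2.

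Most genes of low-oxygen metabolism had small positive values. Of 30 tested hypoxia and glycolysis genes, 2 were called higher and 0 lower, against 1.71% and 2.03% of all genes tested. In 27 the log2 fold change was positive, against 6382 of all 13397 genes, with a median of 0.42 (0.68 without 5-day replicate 1). Without 5-day replicate 3 or 3-month replicate 1 or 2, 1 was called higher, and 3 without 5-day replicate 1 or 2. Ero1a (gene 171562), an oxidase that forms disulfide bonds in the endoplasmic reticulum, had 71.9, 68 and 68.3 CPM at 5 days and 231, 188 and 173 CPM at 3 months. It was even at 5 days and higher in all 3-month libraries (log2 fold change 1.49 ± 0.22 (SE), adjusted p = 0.00914). Egln3 (gene 54702), a prolyl hydroxylase that senses oxygen, had 2.2, 12.3 and 6.69 CPM at 5 days and 176, 156 and 109 CPM at 3 months, with every 3-month library well above every 5-day library (log2 fold change 4.35 ± 0.78 (SE), adjusted p = 0.0199). Glycolytic genes that did not pass included Ldha (0.04 ± 0.34, adjusted p = 0.962) and Pfkfb3 (0.84 ± 0.22, adjusted p = 0.0722). Of 18 tested circadian clock genes, 1 was called higher and 0 lower, against 1.71% and 2.03% of all genes tested. The call was Bhlhe40, a transcriptional repressor that is also induced by low oxygen, with 55.1, 37.4 and 73.8 CPM at 5 days and 202, 108 and 199 CPM at 3 months (log2 fold change 1.65 ± 0.27 (SE), adjusted p = 0.015). Ndufa4l2, a mitochondrial gene outside these lists that was chosen after its values were seen, had 6.06, 9.34 and 24.9 CPM at 5 days and 68.9, 130.1 and 174 CPM at 3 months (log2 fold change 3.48 ± 0.53 (SE), adjusted p = 0.0108). Ero1a and Ndufa4l2 held in all 6 fits. Bhlhe40 was lost without 5-day replicate 3 (adjusted p = 0.0584), and Egln3 without 5-day replicate 3 or 3-month replicate 1 or 2 (up to 0.0703).

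The promoters of 3 genes that rose are shown because they bear on low oxygen. Egln3 belongs to the hypoxia list, whereas Plod2 comes from the matrix list and Bhlhe40 from the clock list, and these were chosen after their values and matches were seen. The core letters of the element bound by hypoxia-inducible factors, ACGTG on either strand, are in capitals (RefSeq, GRCr8, 5′ to 3′ on the gene's strand). On the other strand these letters read CACGT, and where both overlap they form CACGTG, the E-box of clock factors.
Egln3, chr6:77410966-77411265, minus strand: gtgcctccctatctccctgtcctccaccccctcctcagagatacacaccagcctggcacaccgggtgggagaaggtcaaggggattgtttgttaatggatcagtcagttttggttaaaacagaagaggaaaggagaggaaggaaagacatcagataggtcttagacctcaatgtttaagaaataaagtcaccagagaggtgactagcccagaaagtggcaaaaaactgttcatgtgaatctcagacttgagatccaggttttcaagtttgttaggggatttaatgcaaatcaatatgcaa
Plod2, chr8:101964068-101964367, plus strand: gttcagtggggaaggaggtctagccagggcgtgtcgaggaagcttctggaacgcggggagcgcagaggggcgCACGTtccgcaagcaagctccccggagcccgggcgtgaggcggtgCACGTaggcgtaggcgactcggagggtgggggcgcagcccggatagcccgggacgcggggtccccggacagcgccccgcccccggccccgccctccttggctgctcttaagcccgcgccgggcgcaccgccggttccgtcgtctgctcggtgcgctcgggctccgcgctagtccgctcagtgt
Bhlhe40, chr4:143174200-143174499, plus strand: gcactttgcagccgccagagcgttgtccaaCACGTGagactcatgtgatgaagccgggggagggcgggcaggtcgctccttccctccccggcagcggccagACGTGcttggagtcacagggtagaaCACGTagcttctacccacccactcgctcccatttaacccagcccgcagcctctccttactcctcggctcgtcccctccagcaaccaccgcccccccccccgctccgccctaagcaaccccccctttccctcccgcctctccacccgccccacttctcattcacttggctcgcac

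The stretch of Egln3 held 0 matches, that of Plod2 held 2 and that of Bhlhe40 held 4. Matches were present in 13 of the 25 promoters found for the hypoxia and glycolysis list and in 25.5% of those of all tested genes. The circadian clock list had a like share, with matches in 8 of 16 promoters. Of all 27457 promoters of the same length in the table, 19.7% held one. Among the called genes the shares were 24.4% of 176 higher and 20.5% of 219 lower genes. A match is a run of letters in this window and no evidence of binding.

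Of 29 tested matrix proteases and inhibitors, 0 were called lower and 1 higher (2.03% and 1.71% of all genes tested). This was Adamts5, an aggrecan-cleaving protease, which had 67.1, 124 and 65 CPM at 5 days and 250, 239.5 and 317 CPM at 3 months and was higher in all 3-month libraries (log2 fold change 1.64 ± 0.34 (SE), adjusted p = 0.0318). Of 32 tested cytokine and NF-kB response genes, 1 was called higher and 0 lower, against 1.71% and 2.03% of all genes tested. A single call is no result about the list. A positive value was found in 24 of the 32, against 6382 of all 13397 genes. Il11, an interleukin-6 family cytokine, had 1.42, 0.826 and 2.06 CPM at 5 days and 6.57, 3.69 and 8.94 CPM at 3 months (log2 fold change 2.15 ± 0.38 (SE), adjusted p = 0.0178), with no overlap. Il6 had a log2 fold change of 2.57 ± 0.86 but did not pass (adjusted p = 0.135). Of 24 cholesterol synthesis genes, 22 had a negative value, against 7015 of all 13397 genes, with a median of -0.68 (-0.38 without 5-day replicate 1). Adamts5 was kept only without 5-day replicate 2, with adjusted p up to 0.104. Il11 was lost without 3-month replicate 1 or 3 (up to 0.0802).

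Among the largest rises, Orm1 (gene 24614), the acute phase protein orosomucoid, had 1.32, 3.35 and 12.9 CPM at 5 days and 882, 944 and 550.3 CPM at 3 months. All 3-month libraries were far above all 5-day libraries, and the 3-month values were highest in batch 1 (log2 fold change 7.21 ± 1.46 (SE), adjusted p = 0.0304). Snap25 (gene 25012), a SNARE protein of neurons and secretory cells, had 0.0488, 0.155 and 0 CPM at 5 days and 35.1, 9.65 and 1.98 CPM at 3 months, with the highest 3-month values in batch 1 (log2 fold change 7.76 ± 1.01 (SE), adjusted p = 0.00669). Cyp4b1, a cytochrome P450 gene, had 0.0977, 0.31 and 1.14 CPM at 5 days and 9.07, 14.3 and 16.9 CPM at 3 months (log2 fold change 4.86 ± 0.62 (SE), adjusted p = 0.00669). C6, a component of the terminal complement complex, had 0.195, 1.03 and 0.114 CPM at 5 days and 15.6, 15.7 and 4.02 CPM at 3 months (log2 fold change 4.80 ± 0.86 (SE), adjusted p = 0.0193). Dll1, a Notch ligand, had 0.44, 1.03 and 0.229 CPM at 5 days and 13, 8.19 and 3.45 CPM at 3 months (log2 fold change 3.84 ± 0.63 (SE), adjusted p = 0.0143). Wfdc18, a whey acidic protein family gene, had 0.733, 4.49 and 0 CPM at 5 days and 172, 41.4 and 0.17 CPM at 3 months, so the groups overlapped through batch 2 (log2 fold change 5.34 ± 0.96 (SE), adjusted p = 0.0196). Myod1, the regulator of skeletal muscle identity, had 0.537, 0.258 and 0.286 CPM at 5 days and 6.04, 5.51 and 4.3 CPM at 3 months (log2 fold change 3.85 ± 0.64 (SE), adjusted p = 0.015). Of the 6 tested skeletal muscle markers, 4 were not called and Myh1 was called lower, and the 12 markers in the table summed to 14.1 to 130 CPM at 5 days and 15.2 to 63.6 CPM at 3 months, without TMM factors.

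The others of the 15 largest rises were Mrgprx3, Rnase10, Stxbp5l, Cd99l2, Kiaa0408L, Egln3, Wdfy4 and Syndig1, with log2 fold changes between 3.90 and 5.82. Of the 15, Snap25, Mrgprx3, Cyp4b1, Cd99l2 and Kiaa0408L held in all 6 fits. Orm1 was lost without any 1 of the WKY libraries (adjusted p up to 0.0869). Rnase10 was kept only without 5-day replicate 2 or 3-month replicate 3 (adjusted p up to 0.0731). Wfdc18 was lost without 5-day replicate 1 or 3-month replicate 1 or 3-month replicate 3 (adjusted p up to 0.107). Stxbp5l was kept only without 5-day replicate 2 or 3-month replicate 2 (adjusted p up to 0.0584). C6 was kept only without 5-day replicate 2 or 3-month replicate 3 (adjusted p up to 0.0701). Egln3 was lost without 5-day replicate 3 or 3-month replicate 1 or 3-month replicate 2 (adjusted p up to 0.0703). Wdfy4 was lost without 5-day replicate 1 or 3-month replicate 1 or 3-month replicate 2 (adjusted p up to 0.0625). Syndig1 was kept only without 5-day replicate 2 or 3-month replicate 3 (adjusted p up to 0.107). Myod1 was lost without 5-day replicate 3 or 3-month replicate 1 or 3-month replicate 2 (adjusted p up to 0.0626). Dll1 was lost without 5-day replicate 3 or 3-month replicate 1 (adjusted p up to 0.0655). Under the replicate block, the adjusted p was 0.0508 for Orm1 and 0.0543 for Syndig1.

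Among the other large falls, Agtr2 (gene 24182), the type 2 angiotensin receptor of fetal mesenchyme, had 42, 230 and 8.64 CPM at 5 days and 0.0521, 0 and 0.17 CPM at 3 months. It was present in every 5-day library and almost absent at 3 months (log2 fold change -9.91 ± 1.34 (SE), adjusted p = 0.00758), and its call was lost without 3-month replicate 1 (adjusted p = 0.0532). Crabp1, a retinoic acid binding protein, had 14.9, 6.92 and 4.52 CPM at 5 days and 0.0521, 0.101 and 0.113 CPM at 3 months (log2 fold change -6.49 ± 0.74 (SE), adjusted p = 0.00503). Nrk, an X-linked kinase gene, had 16.2, 63.7 and 113 CPM at 5 days and 0.0521, 0.404 and 1.81 CPM at 3 months (log2 fold change -6.60 ± 0.78 (SE), adjusted p = 0.00556), and Rtl3, a gene derived from a retrotransposon, had 22.1, 27.6 and 39.4 CPM at 5 days and 0.261, 0.404 and 0.792 CPM at 3 months (log2 fold change -6.32 ± 0.76 (SE), adjusted p = 0.00556). Ppp1r1b, which encodes the phosphatase regulator DARPP-32, had 2.98, 1.08 and 25.2 CPM at 5 days and 0.0521, 0 and 0 CPM at 3 months (log2 fold change -8.34 ± 1.07 (SE), adjusted p = 0.00669). It rested on 1 read at 3 months, a ratio of 516 (95% counting interval from 92.2 to 20413). Myh1, a myosin of the skeletal muscle marker list, had 11.5, 2.22 and 91.7 CPM at 5 days and 0, 0.101 and 0.283 CPM at 3 months (log2 fold change -7.62 ± 1.54 (SE), adjusted p = 0.0307) and was kept only without 5-day replicate 2 (adjusted p up to 0.12). The calls of Crabp1, Nrk, Rtl3 and Ppp1r1b held in all 6 fits.

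By edgeR, 0 genes of the cell cycle, senescence, interferon, actomyosin and chromatin lists were called. This depended on the libraries: 8 actomyosin genes (median -1.02) and 1 chromatin gene were called lower and 1 chromatin gene higher without 3-month replicate 3, and 3 cell cycle genes were called lower without 5-day replicate 2. With batch 1 alone, 3 actomyosin genes and 1 chromatin gene were called lower, and limma-voom called 2 actomyosin genes lower. Of 40 tested proliferation genes, 35 had a negative log2 fold change, against 7015 of all 13397 genes, with a median of -0.43. That median was -0.016 without 5-day replicate 1, -0.80 without 5-day replicate 2, -0.80 without 3-month replicate 2 and -0.24 without 3-month replicate 3. Mki67, a marker of dividing cells, had 134, 60.3 and 184 CPM at 5 days and 65.3, 117 and 135 CPM at 3 months, so the groups overlapped (log2 fold change -0.20 ± 0.45 (SE), adjusted p = 0.821), and the value was 0.14 without 5-day replicate 1. Of 27 actomyosin and YAP or SRF target genes, 23 were negative, and Vcl, which encodes vinculin, had 819.7, 432 and 1150 CPM at 5 days and 106, 132 and 672 CPM at 3 months (log2 fold change -1.69 ± 0.51 (SE), adjusted p = 0.103). Of the senescence list (13 tested), Cdkn2a, which encodes p16, had 3.62, 8.36 and 3.95 CPM at 5 days and 19, 10.2 and 7.13 CPM at 3 months, overlapping (log2 fold change 1.15 ± 0.36 (SE), adjusted p = 0.11). Of the list of chromatin regulators of development (21 tested), Dnmt3a, a de novo DNA methyltransferase, had 20.9, 26.9 and 20.6 CPM at 5 days and 3.75, 5.46 and 14.9 CPM at 3 months, with no overlap (log2 fold change -1.59 ± 0.46 (SE), adjusted p = 0.0927). By DESeq2, cell cycle genes gave 0 higher and 2 lower calls, senescence genes 1 higher and 0 lower calls, interferon genes 2 higher and 1 lower calls, actomyosin genes 1 higher and 7 lower calls and chromatin genes 2 higher and 2 lower calls. At an unadjusted p under 0.05, the 5 lists held 7, 2, 4, 9 and 4 genes in the same order.

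**Figure D5:**
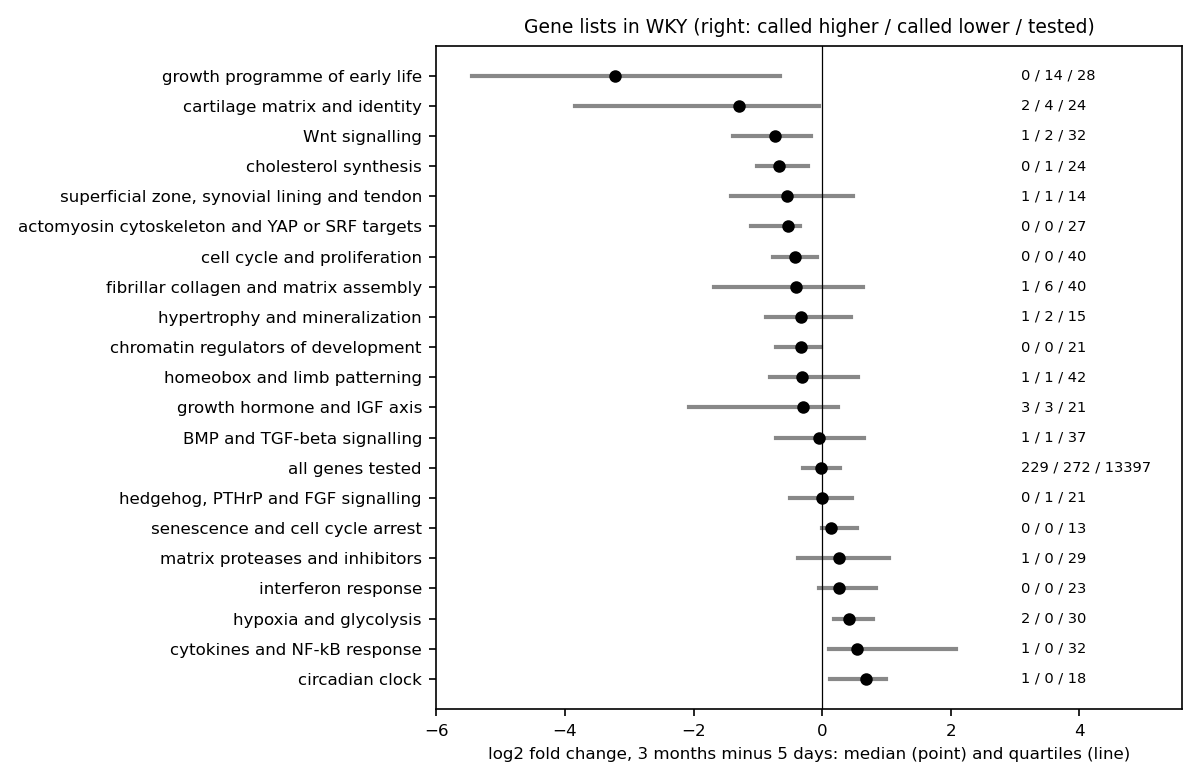
For each gene list, the point is the median log2 fold change (3 months minus 5 days) over its tested members and the line spans the quartiles. Numbers at the right give members called higher, called lower and tested. The early growth list has the lowest median, -3.22, and the row of all genes tested lies at -0.0232.

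SHR chondrocytes were measured in the same model, and their age comparison shares no library with that of WKY, although both share the estimates of spread and batch. Of the 229 genes called higher in WKY, 222 had a positive value in SHR (median 1.03), and of the 272 called lower, 260 had a negative one (median -1.42). Over all 13397 genes, 6613 were positive and 6784 negative in SHR. In SHR the log2 fold change was -5.33 ± 0.49 for Peg3, -5.38 ± 0.71 for Mest, -5.98 ± 0.84 for Plagl1, -6.13 ± 1.02 for Igf2 and 1.38 ± 0.22 for Ero1a. Other named calls had no like change there. Sox6 had -0.55 ± 0.24 in SHR against 1.32 ± 0.24 in WKY. Thy1 had 0.08 ± 0.30 against -1.55 ± 0.31, and Col5a3 -0.16 ± 0.30 against -1.86 ± 0.31. The early growth list had a median of -2.92 in SHR. The difference between the strains' age changes, tested as an interaction, was called for 0 of 13397 genes by edgeR and for 34 by DESeq2, with 569 genes at an unadjusted p under 0.05 by edgeR. The smallest adjusted p was 0.0939, shared by Zfp385b, Stk26 and Sema3e, which were chosen after their values were seen. Zfp385b, a zinc finger gene, had a log2 fold change of 2.81 ± 0.22 in WKY and 0.50 ± 0.21 in SHR. Stk26, a kinase gene, had 0.95 ± 0.25 in WKY and -1.88 ± 0.26 in SHR. Sema3e, a semaphorin gene, had -0.64 ± 0.14 and -2.18 ± 0.15. A difference between strains that misses the threshold with 3 libraries a group does not show that the ages changed alike.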

How the data were processed

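RNA was measured in 12 libraries, and this account concerns the 6 from WKY rats. Expected counts, which RSEM estimates for each gene, are the values of the table that the authors deposited for all 12. Per the submitters' processing notes, the tools included RSEM 1.2.28, Bowtie2 2.4.4 and DESeq2 1.42.1, and the genome was Rnor_6.0. The annotation, the strandedness and any filter are not given in the sources used here, so overlapping or antisense genes and near-identical gene copies may share reads. The authors' log2-scale tables, whose transformation is not stated, were not used.

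Counts, of which 9.17% were not whole, were rounded. Genes were kept by filterByExpr by group (minimum count 10) and tested with edgeR 4.0.16 in R 4.3.3: TMM scaling, robust quasi-likelihood fit of the 4 groups and the batch over all 12 libraries, Benjamini-Hochberg adjustment over 13397 genes, calls at an adjusted p under 0.05. Fitting all libraries gives 7 residual degrees of freedom. Standard errors come from the test statistic. Levels are TMM-scaled CPM as mean ± SD (n = 3), and these SDs hold the batch difference. Floors of 3 counts and intervals cover counting error only. The library totals lay between 17839101 and 20358123 counts, and 97 genes had no counts.

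The rule for names took called genes whose mean reached 5 CPM at one age, whose sign matched between batches and whose symbol was not a provisional one. These were the 15 largest changes each way, up to 4 genes of each list by p, and a fixed set whatever their values (H19 was not analysed here). Some genes that met this rule are not reported here. A list without calls gave up to 3 genes as values. The gene lists, the members and these rules were chosen with earlier results of these data known.

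Alternatives used other scalings, DESeq2 1.42.0, limma-voom (limma 3.58.1), no filter, no batch term, replicate blocks, fewer libraries, and each WKY library left out. Where this left a group with 1 library in a batch, the spread came from all libraries. On simulated data for WKY 3 months against 5 days over 13397 genes, 36% of genes changed 2-fold and 82% of genes changed 4-fold were called, and 5.6% of calls were unchanged genes. The changed genes were drawn only from those with higher counts at 5 days, so these shares may not hold for low genes. Deviations from group means correlated between ages at 0.24, 0.242 and 0.686 for replicates 1 to 3. Number 3 marks batch 2. Within batch 1, crossed numbers correlated at 0.421 and 0.449, and the difference of replicate 1 minus 2 correlated at -0.219 between ages, so replicates 1 and 2 did not deviate together by number there. Batch and number cannot be told apart for number 3. The replicate block is given beside results it changed. Promoters come from RefSeq (GRCr8), matched by gene identifier for 10523 of 13397 tested genes. Gene order used 12847 of them.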

Additional observations from a re-analysis of the deposited data

How the results depend on the processing

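The count of genes called between ages in WKY was 501. It was between 499 and 528 with upper-quartile or relative log expression scaling or limma-voom, 459 without the low-count filter and 336 with the replicate number as a block over all libraries. DESeq2 called 1495 (744 higher, 751 lower). Other counts were 128 without the batch term, 268 with WKY libraries only, 146 with WKY libraries only and a replicate block, 262 with batch 1 only (177 of the 501 among them) and 254 with SHR 5-day replicates 1 and 2 averaged. Leaving out 1 WKY library gave 110 to 552. The cause was not tested, beyond the smaller number of libraries in such fits.

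The interaction gave 0 calls, 34 with DESeq2 (15 positive, 19 negative), 1 with batch 1 only, 1 with the Y-linked libraries left out, and 0 to 1 when 1 WKY library was left out. Over the named genes and their alternatives, 1254 values kept direction and side of the threshold, 333 fell short of it and 42 newly passed it. The only sign change was Mki67 without WKY 5-day replicate 1 (0.14, adjusted p = 0.915). Over the 6 fits that left out 1 library its value lay between -0.53 and 0.14.

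With the replicate block, 330 of the 501 calls were kept, and calls of named genes that were lost are given beside them. Limits are 3 libraries a group, 1 of them in batch 2, and an unknown sex. Among the WKY libraries, Y-linked transcripts were present in 5-day replicates 2 and 3 only, so sex may differ between the ages. Low genes near 0 counts have changes fixed by few reads.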

Other observations

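The genes below lie outside the lists and were chosen one by one after their values were seen, so they stand for no group. Apart from Slitrk2, Duox1 and Duoxa1, they are among the 86 calls that held in all 6 fits. Epha7, an ephrin receptor, had 12.2, 11.5 and 11.2 CPM at 5 days and 0.521, 0.606 and 0.17 CPM at 3 months (log2 fold change -4.70 ± 0.52 (SE), adjusted p = 0.00503), and its relative Epha3 had 5.13, 4.8 and 2.8 CPM at 5 days and 0, 0 and 0.113 CPM at 3 months (called lower, adjusted p = 0.00554). Unc5c, a netrin receptor, had 13.6, 21.2 and 45.7 CPM at 5 days and 3.02, 5.1 and 8.77 CPM at 3 months (log2 fold change -2.20 ± 0.30 (SE), adjusted p = 0.00758). Slitrk5, a transmembrane protein with leucine-rich repeats, had 17.7, 16.7 and 17.9 CPM at 5 days and 1.09, 2.42 and 1.87 CPM at 3 months (log2 fold change -3.27 ± 0.38 (SE), adjusted p = 0.00547), while its relative Slitrk2 was called higher (2.51 ± 0.50, adjusted p = 0.0296), a call that was lost without any 1 of the 6 libraries (adjusted p up to 0.12). Epha7, Epha3, Unc5c and Slitrk5 were lower in every 3-month library than in any 5-day library, and in SHR the values were -2.97 ± 0.47 for Epha7, -2.14 ± 0.30 for Unc5c and -4.36 ± 0.40 for Slitrk5 as log2 fold changes.

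Meox2, a homeobox gene, had 86.1, 94.3 and 77.1 CPM at 5 days and 4.12, 2.27 and 3.45 CPM at 3 months (log2 fold change -4.72 ± 0.67 (SE), adjusted p = 0.00887). Foxp2, a forkhead gene, had 12.2, 21.2 and 25.7 CPM at 5 days and 0.521, 0.455 and 1.07 CPM at 3 months (log2 fold change -4.92 ± 0.69 (SE), adjusted p = 0.0085). Tub, the tubby gene, had 18.9, 14.7 and 21.4 CPM at 5 days and 0.886, 1.06 and 2.55 CPM at 3 months (log2 fold change -3.77 ± 0.30 (SE), adjusted p = 0.000904), and Fabp3, a fatty acid binding protein, had 66.5, 54 and 116 CPM at 5 days and 5.78, 5.61 and 3.9 CPM at 3 months (log2 fold change -4.05 ± 0.47 (SE), adjusted p = 0.00554). A rise that held in all 6 fits was that of Slc7a2, a transporter of cationic amino acids (34.9, 61.1 and 64.6 CPM at 5 days and 328, 237 and 155 CPM at 3 months, log2 fold change 2.19 ± 0.34 (SE), adjusted p = 0.0115).

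The paired genes Duox1, a hydrogen peroxide producing oxidase, and Duoxa1, its maturation factor, fell together in WKY. Duox1 had 16.1, 15.5 and 15.3 CPM at 5 days and 1.67, 0.707 and 0.566 CPM at 3 months (log2 fold change -4.05 ± 0.77 (SE), adjusted p = 0.0245) and Duoxa1 15.2, 10.7 and 8.64 CPM at 5 days and 3.08, 2.83 and 0.792 CPM at 3 months (log2 fold change -2.50 ± 0.48 (SE), adjusted p = 0.0253). In SHR the values were 0.57 ± 0.72 and 0.67 ± 0.47, but the interaction did not pass (adjusted p = 0.868 and 0.859). Both calls in WKY were kept only without 5-day replicate 2 (adjusted p up to 0.108 and 0.0906). Both genes are neighbours in opposite orientation, and counts not stated to use strand can share reads between them.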
